A study of Mus musculus with 6 samples.

Results

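The phagocyte NADPH oxidase was followed by 8 listed genes, Cybb, Cyba, Ncf1, Ncf4, Rac1, Rac2, Rap1a and Hvcn1, in a mouse leukaemia line exposed to a PU.1 inhibitor. A gene was measured where a row of the deposited table carried its symbol and no other, and the brightest such row over the 6 arrays was kept. This gave 7 of the 8 genes, each with 1 row, among 22180 genes in all. Rap1a had only a row shared with Gm9392, so no value is given for it. The line was an acute myeloid leukemia (AML) line called PU.1low URE-/-, started from an URE-/- mouse that had reached the leukemic stage. The URE is an upstream regulatory element of Spi1, the gene of the ETS transcription factor PU.1, and both groups lacked it. One group of 3 arrays came from cells given DB2313 at 330 nM for 24 h, and the other 3 arrays from cells given an equal volume of water as vehicle for 24 h. All arrays come from this single line, named as biological replicates. Nothing says that they came from separate cultures, so the p-values rest on a spread between samples that may be technical.

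The oxidase transfers electrons from cytosolic NADPH across a membrane to oxygen and so makes superoxide, which phagocytes use against microbes. Its catalytic subunit, gp91phox (Cybb), sits in the membrane with p22phox (Cyba), and becomes active when p47phox (Ncf1), p67phox, p40phox (Ncf4) and a Rac GTPase join it from the cytosol. The proton channel encoded by Hvcn1 lets protons follow the electrons and keeps the membrane potential and pH within the range in which the oxidase works. Inherited loss of Cybb, Cyba or Ncf1 causes chronic granulomatous disease, and PU.1 is a known activator of Cybb and Ncf1 transcription in myeloid cells.

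RefSeq promoter windows of build GRCm38.p6 were at hand for 3 of the 8 genes, Cybb, Cyba and Ncf1. The windows of Cybb and Ncf1 are shown because these genes moved in opposite directions under an inhibitor of a factor that binds DNA. Each runs from 5′ to 3′ on the gene's strand, the minus strand, and ends before the start of the transcript, and capitals mark the ETS core GGAA on either strand (TTCC on the opposite one). The first spans chrX:9469325-9469574, bases -250 to -1. It lies inside the span RefSeq lists for Cybb, which runs on to 9487766, so it is not upstream of every Cybb transcript. The second spans chr5:134229629-134229875, bases -250 to -4, since another Ncf1 transcript covers the last 3 bases.
Cybb: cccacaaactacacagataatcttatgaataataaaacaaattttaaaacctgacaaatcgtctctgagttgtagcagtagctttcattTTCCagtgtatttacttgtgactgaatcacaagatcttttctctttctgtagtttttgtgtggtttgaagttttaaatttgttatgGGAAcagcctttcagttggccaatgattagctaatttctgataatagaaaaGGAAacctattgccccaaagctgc
Ncf1: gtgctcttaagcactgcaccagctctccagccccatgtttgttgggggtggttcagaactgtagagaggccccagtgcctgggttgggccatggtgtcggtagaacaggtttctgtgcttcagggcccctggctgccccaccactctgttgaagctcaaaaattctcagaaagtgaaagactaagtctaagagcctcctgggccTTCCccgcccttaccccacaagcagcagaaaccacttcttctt
The third stretch is shown for a match to GAGGAA, the core that PU.1 prefers, which overlaps a match to GGAANNGAAA, a composite of ETS and IRF elements. Capitals mark these matches, both on the opposite strand, in bases 1 to 30 of the Cybb transcript, chrX:9469295-9469324.
Cybb start: tgtTTTCATTTCCTCatcagaagaagaagc

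In the full windows of 300 bases, GGAA matched 4 times in Cybb, 2 times in Cyba and once in Ncf1, and 96% of all 32851 RefSeq windows of 27025 genes held a match on either strand. GAGGAA was in the Cybb window, at bases 10 to 15 of the transcript, and in 28.3% of all windows. The Cyba and Ncf1 windows held neither it nor the composite. The composite GGAANNGAAA lay at bases 4 to 13 of Cybb and occurred in 2.72% of all windows. An IRF-type element, GAAANNGAAA, which shares 3 or more bases with a GGAA match at 2 of its 3 Cybb positions, matched 3 times in Cybb and once in Ncf1, at -82 to -73, and in 3.44% of all windows. A CCAAT box lay at -56 to -52 in Cybb only among the 3 genes, with 37.4% of windows holding one. A and T made up 66% of the 250 upstream bases in Cybb, 45.6% in Ncf1 and 40% in Cyba, against a median of 47.6%. These are matches of letters, and binding was not measured.

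The comparison asked how each part of the oxidase differed after DB2313. The proton channel gene Hvcn1 fell 1.80-fold, the organiser Ncf1 fell 1.60-fold and the catalytic Cybb rose 1.57-fold. The values of Cyba, Ncf4, Rac1 and Rac2 did not pass the test. The test was limma over all 22180 genes, 2-sided, with Benjamini-Hochberg adjustment at 0.05. Of the 7 measured genes 1 was higher and 2 were lower, where 1.81% of all genes passed in either direction, 1.02% higher and 0.789% lower. The opposite moves of Cybb and Ncf1 were known when the genes were chosen, so these counts are a description. The median log2 difference over the 7 genes was -0.10, against -0.0025 over all genes. The 2 groups of arrays did not overlap for 5 of the 7 genes, 1 higher and 4 lower, where 19.3% of all genes did not overlap, 9.75% higher and 9.55% lower.

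**Figure D1:**
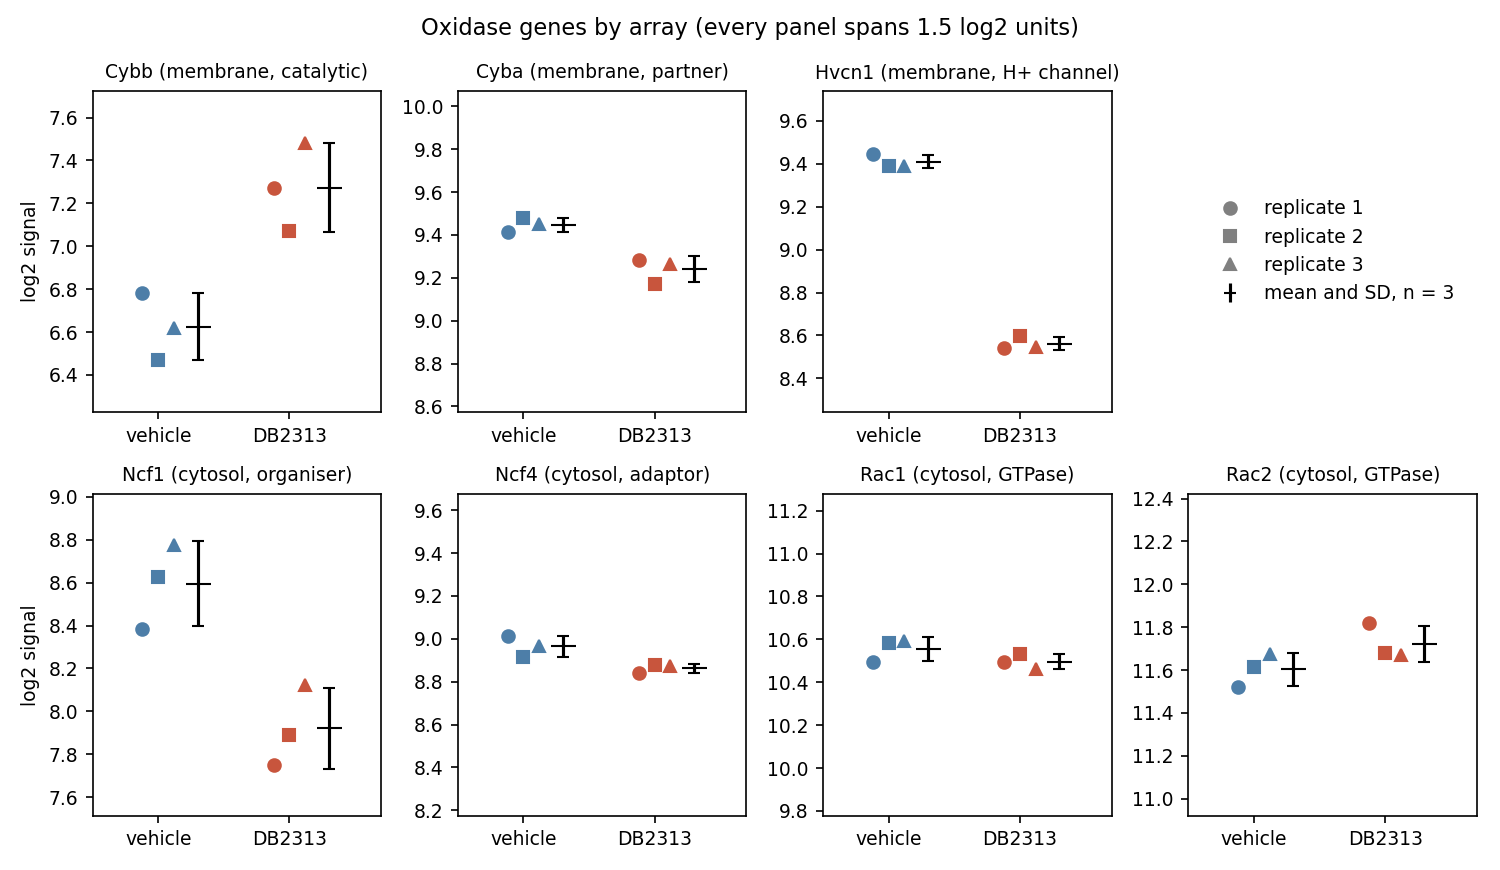
Log2 signal of the 7 oxidase genes on each array, with vehicle on the left of each panel, DB2313 on the right, marker shapes for replicates, and the mean and SD (n = 3) beside them. The arrays of Hvcn1 lie in 2 tight groups 0.85 log2 units apart, those of Cybb and Ncf1 in wider groups that also do not touch, and those of Rac1 and Rac2 overlap.

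Among the genes of the membrane part, Cybb had log2 signals of 6.78, 6.47 and 6.62 in vehicle and of 7.27, 7.07 and 7.48 with DB2313. Every DB2313 array lay above every vehicle array. The mean was 6.62 ± 0.16 in vehicle and 7.27 ± 0.21 with DB2313 (SD, n = 3, log2 scale), and the log2 difference was 0.65 (SE 0.121, 95% confidence interval 0.37 to 0.93, limma adjusted p = 0.0468). Cyba, whose product stabilises gp91phox, had 9.41, 9.48 and 9.45 in vehicle and 9.28, 9.17 and 9.27 with DB2313. Its arrays did not overlap either, but in the direction opposite to Cybb and by less. The log2 difference was -0.21 (SE 0.062, interval -0.35 to -0.06, limma adjusted p = 0.204, unadjusted p = 0.0109), so a fall of up to 0.35 on the log2 scale is within its interval. Cyba passed in 2 alternatives, after 32 was added to the linear signal (adjusted p = 0.0384) and with a trended and robust prior (adjusted p = 0.0208).

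Hvcn1 had log2 signals of 9.44, 9.39 and 9.39 in vehicle and of 8.54, 8.60 and 8.55 with DB2313. The gap between the groups far exceeded the spread within them. The means were 9.41 ± 0.03 and 8.56 ± 0.03 (log2, SD, n = 3), with a log2 difference of -0.85 (SE 0.0576, interval -0.98 to -0.71, limma adjusted p = 0.00084). By p this was rank 19 and by size of fall rank 38 of the 22180 genes. A further row that names both Tctn1 and Hvcn1 was left out. Hvcn1 passed in each of the 16 alternatives tried, with log2 differences from -0.87 to -0.80.

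Among the cytosolic genes, Ncf1 had log2 signals of 8.39, 8.62 and 8.78 in vehicle and of 7.75, 7.89 and 8.12 with DB2313. All 3 treated arrays lay below all 3 vehicle arrays. Its means were 8.60 ± 0.20 and 7.92 ± 0.19 (SD, n = 3, log2 scale), and the log2 difference was -0.68 (SE 0.127, interval -0.97 to -0.38, limma adjusted p = 0.0472). Ncf4, which binds a phosphoinositide of the phagosome and supports the oxidase there, had 9.01, 8.91 and 8.97 in vehicle and 8.84, 8.88 and 8.87 with DB2313. The treated arrays were again lower without overlap, by a small step of -0.10 (interval -0.24 to 0.04, limma adjusted p = 0.546).

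The Rac genes encode the GTPases that switch the assembled oxidase on, Rac2 being the form restricted to blood cells and Rac1 the one found in most tissues. Rac2 had 11.52, 11.61 and 11.68 in vehicle and 11.82, 11.68 and 11.67 with DB2313, so the groups overlapped. Its log2 difference was 0.12 (interval -0.05 to 0.29, limma adjusted p = 0.565). Rac1 had 10.49, 10.58 and 10.59 in vehicle and 10.50, 10.53 and 10.46 with DB2313. The Rac1 groups overlapped as well, with a log2 difference of -0.06 (interval -0.20 to 0.08, limma adjusted p = 0.765). These intervals leave room for differences of up to 0.29 for Rac2 and a fall of up to 0.20 for Rac1. The products of the Rac genes are close relatives, and probe sequences were not used here to check for shared hybridisation.

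**Figure D2:**
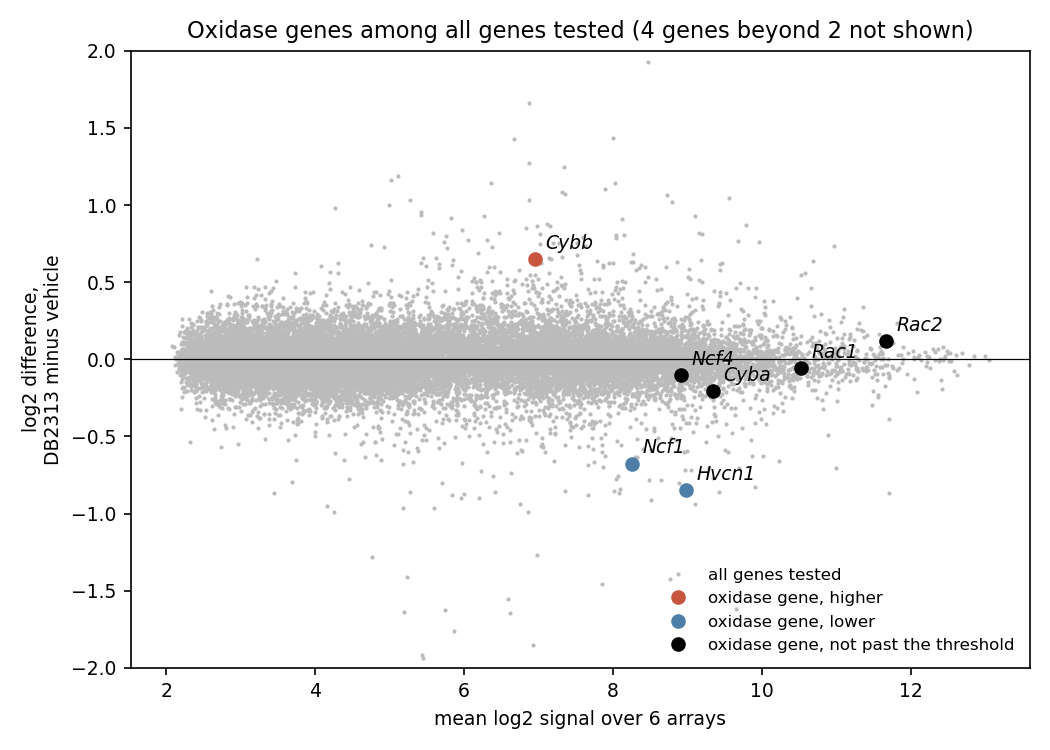
Log2 difference between DB2313 and vehicle against the mean log2 signal for all genes tested (grey), with the 7 oxidase genes marked and 4 genes beyond 2 log2 units not shown. Cybb lies above the cloud, and Ncf1 and Hvcn1 below it. The 4 other genes lie between them at high signals, from -0.21 for Cyba to 0.12 for Rac2.

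Of the membrane genes, the catalytic Cybb rose and the proton channel gene Hvcn1 fell past the threshold, while Cyba did not pass. Among the cytosolic genes only Ncf1 passed, and it fell. Rac2 alone of these had a positive value, with overlapping groups and an interval of -0.05 to 0.29. The membrane genes spanned log2 differences of -0.85 for Hvcn1, -0.21 for Cyba and 0.65 for Cybb, and the cytosolic genes ran from -0.68 for Ncf1 to 0.12 for Rac2. Within each array, the difference between the Cybb and Ncf1 rows was 0.37, -0.18 and -0.19 in vehicle, relative to the vehicle mean, and 1.49, 1.15 and 1.33 with DB2313. The signal of Cybb relative to Ncf1 was thus 2.51-fold higher in treated cells (SD of the log2 difference 0.32 in vehicle and 0.17 with DB2313, n = 3), given with no test because the pair was picked for this difference. Cybb relative to Cyba, its partner in the membrane, was 1.81-fold higher, and Ncf4 relative to Ncf1 was 1.49-fold higher. Cyba relative to Hvcn1 was 1.56-fold higher, and Rac2 relative to Rac1 1.13-fold. The treated and vehicle arrays did not overlap in any of these pairs. For Cybb with Ncf1 or with Cyba this had to be so, since those rows moved in opposite directions without overlap. The share over other pairs of genes was not computed.

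**Figure D3:**
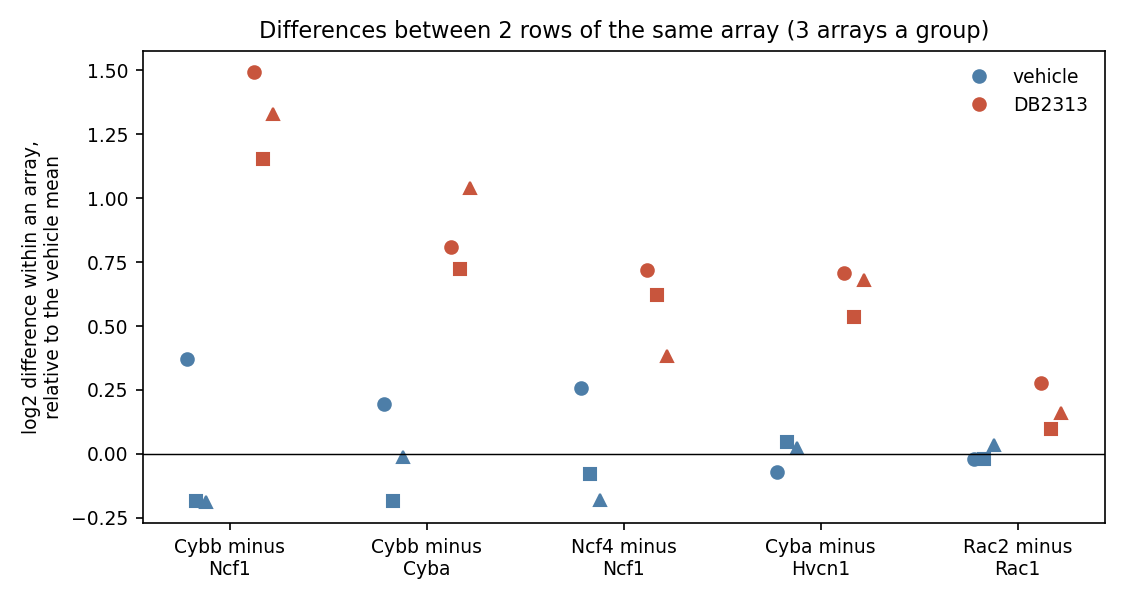
Log2 difference between 2 rows of the same array, relative to the vehicle mean of that pair, for 5 pairs of oxidase genes, with 3 vehicle arrays in blue and 3 DB2313 arrays in red (circles, squares and triangles are replicates 1, 2 and 3). The Cybb to Ncf1 pair shows the widest step, 1.33 log2 units, and the Rac2 to Rac1 pair the narrowest, 0.18.

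The 3 genes past the threshold differed in how tightly their replicates lay. The pooled SD within groups was 0.18 for Cybb and 0.19 for Ncf1, at the 93.4 and 94.8 percentiles of all genes brighter than the median gene. For Hvcn1 it was 0.030, at the 5.46 percentile. With 1 array left out in turn, Hvcn1 passed in 6 of 6 settings (adjusted p 0.00666 to 0.00945), Ncf1 in 0 of 6 (adjusted p 0.0618 to 0.157) and Cybb in 1 of 6 (adjusted p 0.0493 to 0.154). Their directions did not turn in any of these settings. After quantile normalization Cybb had an adjusted p of 0.0534 and Ncf1 of 0.0504, and neither passed.

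**Figure D4:**
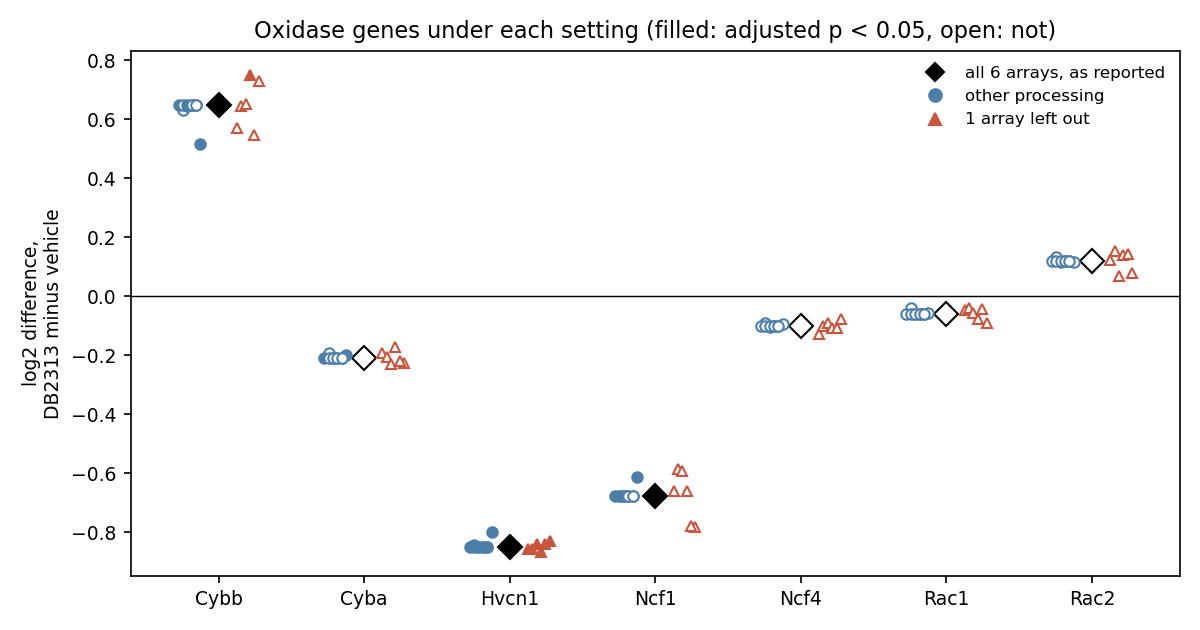
Log2 difference of each oxidase gene with all 6 arrays (black diamonds), under other processing (blue circles) and with 1 array left out (red triangles), filled where the adjusted p was under 0.05. Hvcn1 is filled throughout, between -0.87 and -0.80, while Cybb and Ncf1 keep their side of 0 but are open in many settings.

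Genes with the most similar profiles were sought by Pearson's r over the 6 arrays among 11083 genes brighter than the median gene. All 6 values share the split into 2 groups, so r mostly follows it and is a description. Hvcn1 was most like Mxra7 (r = 0.999), Xdh (r = 0.998) and Abhd5 (r = 0.998), whose log2 differences were -0.19, -2.50 and -0.78. Cybb was most like Dpy19l3, Rab38 and Tfip11 (r = 0.992, 0.989 and 0.988, log2 differences 0.22, 0.45 and 0.11). Ncf1 was most like Dgka, Copb1 and Plekho2 (r = 0.994, 0.993 and 0.990, log2 differences -0.30, -0.13 and -0.22). Of these similar genes, only Xdh, Abhd5 and Rab38 passed the threshold (limma adjusted p = 1.81e-05, 0.00151 and 0.0402). The others did not (limma adjusted p 0.142 to 0.510). An r above 0.95 was reached by 218 genes for Hvcn1, 92 for Ncf1 and 73 for Cybb.

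Lists of genes around the oxidase gave 6 higher and 4 lower genes among 105 measured of 124 listed, where 1.02% of all genes were higher and 0.789% lower. The median log2 difference of the 105 genes was -0.0013, against -0.0025 over all genes. An unadjusted p under 0.05 was found for 12.7% of all genes. Of 8 further oxidase genes, among them other NOX and DUOX enzymes and Cybc1, a chaperone of gp91phox, none passed in limma, and 0 had an unadjusted p under 0.05, which in so short a list is little different from 12.7%. Nox1 had the smallest p of these, with a log2 difference of 0.24 (adjusted p = 0.405) at a vehicle signal of 3.58, below the median gene at 5.17. Of 21 regulators of Rac, 3 rose and 1 fell. Bcr, which turns Rac off, rose by 0.63 (SE 0.0746, limma adjusted p = 0.00774), and Elmo1, a partner of the DOCK exchange factors that turn Rac on, by 0.34 (adjusted p = 0.0455). Arhgap15, another inactivator of Rac named after its values were seen, rose by 0.32 (adjusted p = 0.049), and the exchange factor Arhgef6 fell by 0.52 (adjusted p = 0.0434). Of 17 regulators of Rap1, Sipa1l1, a GTPase-activating protein of Rap, rose by 0.62 (adjusted p = 0.00464), the exchange factor Rapgef6 rose by 0.32 (adjusted p = 0.0382), and none fell.

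Among 22 kinases and lipid enzymes upstream of assembly, Prkcd, a protein kinase C that phosphorylates oxidase subunits, fell by 0.41 (SE 0.0726, limma adjusted p = 0.0386) and none rose. None of 12 enzymes that act on superoxide or peroxide passed in limma, and 3 had an unadjusted p under 0.05 (12.7% over all genes). The smallest p was that of the mitochondrial peroxidase Prdx3, with -0.20 (adjusted p = 0.238). Of 7 genes of NADPH supply, Me1, the cytosolic malic enzyme, fell from 8.58 ± 0.16 to 7.13 ± 0.10 (log2, SD, n = 3; adjusted p = 0.000755), and the other 6, which include Pgd of the pentose phosphate pathway, did not pass. G6pdx and Tkt, also listed for NADPH supply, were not measured. Of 18 transcription regulators tied to oxidase promoters, Satb1, a chromatin organiser, rose by 0.53 (limma adjusted p = 0.00751) and Spi1 fell by 0.37 (adjusted p = 0.0342). With any 1 array left out, Bcr, Sipa1l1, Me1 and Satb1 passed in 6 of 6 settings, and the 6 other called genes of these lists in 0 of 6. The medians of these 7 lists lay between -0.12 and 0.04.

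**Figure D5:**
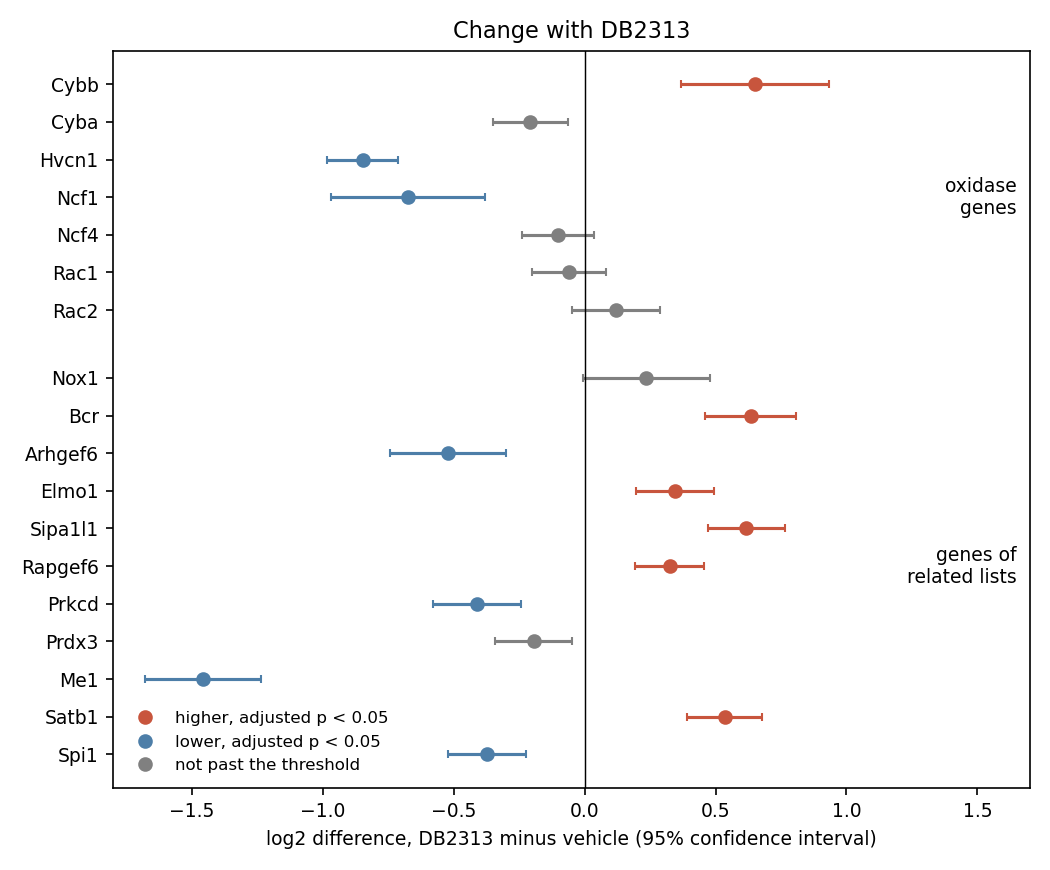
Log2 difference between DB2313 and vehicle with its 95% confidence interval for the 7 oxidase genes (upper block) and the named genes of related lists (lower block), coloured by the test over all genes. Me1 and Hvcn1 lie farthest to the left, at -1.46 and -0.85, and Cybb farthest to the right, at 0.65.

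The arrays had medians between 4.77 and 4.82 over all rows, and Pearson's r across genes was 0.996 within groups and 0.994 to 0.995 between them. Of 12 markers of myeloid precursors, 10 were brighter than the median gene, led by Elane at 13.05 in vehicle, while Ptprc at 3.32 and Cd34 at 4.59 were not, and none passed in limma (2 had an unadjusted p under 0.05, a share near the 12.7% of all genes). The median of this list lay between 8.43 and 8.70 over vehicle arrays and between 8.56 and 8.74 over DB2313 arrays. Of 12 markers of mature neutrophils, which carry the oxidase in quantity, 4 were brighter than the median gene and S100a8, named after its values were seen, fell by 0.63 (adjusted p = 0.0333). S100a8 passed in 0 of 6 settings with 1 array left out (adjusted p 0.0512 to 0.127), and not with all rows tested (0.124) or in the unmoderated test (0.183). With Lcn2, also named after its values were seen, which had -0.48 (adjusted p = 0.055), 2 of the 12 had an unadjusted p under 0.05. Of the 12 neutrophil markers, 6 lay above 0 and 6 below. The median of the neutrophil list was 4.50 to 4.60 in vehicle and 4.56 to 4.77 with DB2313. That of 12 macrophage markers was 4.67 to 4.82 and 4.73 to 4.79. No macrophage marker passed the threshold in limma, and 2 had an unadjusted p under 0.05, again near 12.7%. These were Cd68, with -0.47 (limma adjusted p = 0.0554), and Vcam1, with 0.21. In the lists for eosinophils with basophils and mast cells, B cells, T and NK cells, erythroid cells, megakaryocytes and stroma, the single gene past the threshold was Cdh5, an endothelial cadherin, which rose by 0.86. Fewer cells of a type and less RNA per cell cannot be told apart in such bulk samples, and the part of these markers in the oxidase results was not tested.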

How the data were processed

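Total RNA was labelled with biotin by a whole-transcript kit and hybridised to Affymetrix arrays, per the labels' protocols. The Affymetrix software Expression Console is named in the submitters' processing notes. For background correction, summarisation, build and version, the sources used here give nothing. The deposited values are on the log2 scale, as judged from their range, and near-equal medians point to a common scaling before deposit, which would hide an overall shift in RNA. A log2 difference of dim rows may be understated, which was not measured here, and the number of arrays limits the precision.

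Of 41345 rows, 23521 had 1 gene symbol, 1814 several and 16010 none. Limma 3.58.1 in R 4.3.3 (lmFit, eBayes) was fitted to the brightest row of each of 22180 genes, without a filter. It was tested on simulated data with normal noise and variances drawn from the fitted prior. Such data meet the assumptions of limma, so they cannot show how well it suits these arrays. Lists held 213 symbols, of which 184 were measured. The members and lists were chosen with earlier results of these data known. Named genes were all members, up to 3 genes past the threshold per related list (or the 1 with the smallest p), and the 3 most similar profiles for each called member. Alternatives were 2 rescalings, 2 filters on low signal, an offset of 32, a trended robust prior, the replicate block, the mean of rows, all rows, an unmoderated test and each array left out. Probe rows have no coordinates here, and promoter windows were read from RefSeq.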

Additional observations from a re-analysis of the deposited data

How the results depend on the processing

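Hvcn1 kept its direction and its call in all 16 alternatives, with log2 differences from -0.87 to -0.83 when 1 array was left out and adjusted p up to 0.015, and Cyba, Ncf4, Rac1 and Rac2 kept their directions. Cybb and Ncf1 kept their directions and lost their calls under quantile normalization (0.63 and -0.68), with all rows tested (0.65 and -0.68) or with an unmoderated test per gene (0.65 and -0.68). Replicate numbers showed little pairing over all genes: deviations from group means correlated by 0.0226, 0.0781 and 0.00828 for replicates 1, 2 and 3. Such a correlation does not settle pairing for single genes. The SE with the replicate block was 0.064 for Ncf1 (0.127 without it), 0.0911 for Cybb (0.121) and 0.064 for Hvcn1 (0.0576). With the replicate block Cybb had 0.65 and did not pass (adjusted p = 0.0591), Ncf1 and Hvcn1 passed (adjusted p = 0.0227 and 0.015), and 4 genes of related lists and 190 of all genes passed. With 1 array left out, Cybb ranged from 0.55 to 0.75 and Ncf1 from -0.78 to -0.59, and 1 to 2 oxidase genes, 4 genes of related lists and 136 to 187 of all genes passed. The count of oxidase genes, 3 with all arrays, was 1 after quantile normalization, with all rows or in the unmoderated test. That of related genes, 10 with all arrays, was 17 with the trended prior, 4 with all rows and 2 in the unmoderated test. The 401 genes past the threshold became 799 without genes below the median signal, 830 with the offset, 920 with the trended prior, 142 with all rows and 70 in the unmoderated test. The cause of these shifts was not tested. Tests with all rows adjust over more rows, but their unadjusted p-values differed too. For Cybb the unadjusted limma p was 0.00081 in the main test and 0.00203 with all rows. Its log2 difference was 0.65 in both, and its SE was 0.121 in the main test and 0.131 with all rows. Signal over background was not at hand, so a bound for dim rows such as Nox1 could not be set.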
